A study of Homo sapiens with 28 samples.

Results

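Chromatin accessibility at the loci of the RUNX family was described in human myeloma cell lines. The family consists of the DNA-binding factors RUNX1, RUNX2 and RUNX3 and their shared non-DNA-binding partner CBFB. Members were the ATAC-seq regions whose nearest annotated gene start belonged to 1 of these 4 genes, which gave 83 of 154985 regions. RUNX1 held 54 of them, RUNX2 17, RUNX3 8 and CBFB 4. Of the 83 regions, 17 lay within 2500 bp of an annotated start of their gene and 66 were farther away, here called distal.

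ATAC-seq marks open chromatin through the insertions of the Tn5 transposase. The untreated group held 22 lines with 1 library each, and the lenalidomide group held 6 of these lines (Karpas620, KMS27, L363, MM1S, OPM2 and RPMI8226) after 10 uM lenalidomide, sampled on day 3. The untreated lines carried the treatment label none, no vehicle is named for them, and each line is a culture of established tumor cells rather than a primary sample. Lenalidomide is an immunomodulatory drug that directs the cereblon ubiquitin ligase to degrade the lymphoid factors IKZF1 and IKZF3.

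RUNX proteins bind the DNA element TGTGGT through the Runt domain, and CBFB raises their affinity for it. Each RUNX gene is transcribed from a distal promoter, P1, and a proximal promoter, P2, which give proteins with different amino termini. RUNX1 is needed for definitive blood cell formation, RUNX2 directs bone formation, and RUNX3 acts in T and NK lymphocytes and in activated B cells, while RUNX1 and CBFB are recurrent targets of leukemia translocations.

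Levels are given as CPM, the reads in a region per 1000000 reads that the library had in all 154985 regions. A region was counted as accessible in a line where the detection table of the files held a value above 0 for that library, read here as a peak called there, since no source used here defines the values. Level and detection did not always go together: RUNX1 P2 was not detected in L363 at 37.2 CPM or in LP1 at 31.3 CPM. Libraries held 1599857 to 5564534 region reads in the untreated group and 2168680 to 4248017 in the lenalidomide group, and 3 reads, the upper limit that a count of 0 allows, corresponded to 0.539 to 1.88 CPM. Over 22765 regions accessible in many libraries, the log2 levels of 2 libraries of the same line correlated at r = 0.933 to 0.960. Those of different lines had a median r of 0.575. KMS34 and PE1 stood apart from the other line pairs with r = 0.913, so results over lines were also computed without PE1. Of 7 plasma cell marker genes, 6 had a region within 2500 bp of the start, and 5 of these 6 regions were accessible in 11 or more lines. Of all regions within 2500 bp of an annotated start, 32.2% were. None of the 3 B cell, 1 T cell or 1 myeloid marker regions found was accessible in 11 lines, whereas 1 of 3 stroma marker regions, that of COL1A1, was.

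The P1 promoters of all 3 RUNX genes carry a tandem pair of RUNX sites close to the start, and these stretches are shown because they are shared by the 3 genes and were not used to choose the regions. The sequences are from GRCh37, the build of the files, on the strand of each gene, and capitals mark TGTGGT or TGCGGT on either strand.
RUNX1 P1, chr21:36421555-36421584, minus strand: ataaacaACCACAgaACCACAagttgggta
RUNX2 P1, chr6:45296076-45296105, plus strand: acaaacaACCACAgaACCACAagTGCGGTg
RUNX3 P1, chr1:25291610-25291639, minus strand: tccctcaACCACAgaACCACAaggccaggc

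The first capital base lies 22 bp downstream of the annotated P1 start in RUNX1, 16 bp downstream in RUNX2 and upstream in RUNX3, at an offset of -131 bp. In the 300 bases around the 3 P2 starts and the CBFB start, from 250 bases before to 49 after, neither TGTGGT nor TGCGGT occurred on either strand. The tandem pattern ACCACANNACCACA, searched on both strands, was found in the central 300 bases of 0.0536% of all regions and in 0.0114% of 35116 RefSeq promoters of the same length from GRCh38. The single element TGTGGT was far more common, in 30.2% of all regions and in 30 of the 83 members, or 36.1%. The element TGCGGT was held by 5.96% of all regions and 6.02% of members. A match of these letters is a description and was not tested for binding.

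Accessibility at the starts differed in order between the family members. Both RUNX1 promoters, both RUNX3 promoters and the CBFB start were open in most lines, whereas RUNX2 P1 was open in 2 of 22. RUNX1 P1, chr21:36421062-36421797, spanned the promoter, the first exon and its 5' UTR and held 3.68 to 57.3 CPM with a median of 34.8, and it was accessible in 19 lines. The lowest values were those of KMS12BM and OCIMY5, and MM1S was the highest. RUNX1 P2, chr21:36260251-36261625, held 0.526 to 65.9 CPM with a median of 30.9 and was accessible in 14 lines. A second region at P2, RUNX1_10 at chr21:36261867-36262636, held 0.263 to 41.9 CPM with a median of 19.9 and was accessible in 16 lines. KMS12BM was the lowest and MM1S the highest line at both P2 regions.

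RUNX2 P1, chr6:45295797-45296389, lies inside the neighboring gene SUPT3H. It held 0 to 9.92 CPM with a median of 1.34 and was accessible only in KMS12PE and KMS27. At RUNX2 P2 the nearest member region, chr6:45390485-45390859, began 263 bp from the annotated start. It held 1.86 to 12.1 CPM with a median of 5.30, and a peak was called there in KMS20 alone. The start itself lay in another region, chr6:45389344-45390465, that the files assign to the overlapping gene RP1-244F24.1. That region held 16.9 ± 6.59 CPM (SD, n = 22) and was accessible in 9 lines, and the reads of the overlapping genes cannot be told apart. Per kb the means were 15.7 ± 6.54 CPM in the member and 15.1 ± 5.87 in the other (SD, n = 22).

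RUNX3 P1, chr1:25291394-25292297, held 4.65 to 50.2 CPM with a median of 24.7 and was accessible in 20 lines, with PCM6 lowest and KMS34 highest. RUNX3 P2, chr1:25256736-25257243, held 0 to 27.5 CPM with a median of 15.2 and was accessible in 17 lines. The value of 0 belonged to KMS12PE and L363 was the highest. The CBFB start region, chr16:67062480-67063055, was the only 1 of the 83 members accessible in all 22 lines. It held 4.94 to 23.5 CPM with a median of 16.1, lowest in KMS20 and highest in L363.

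**Figure D1:**
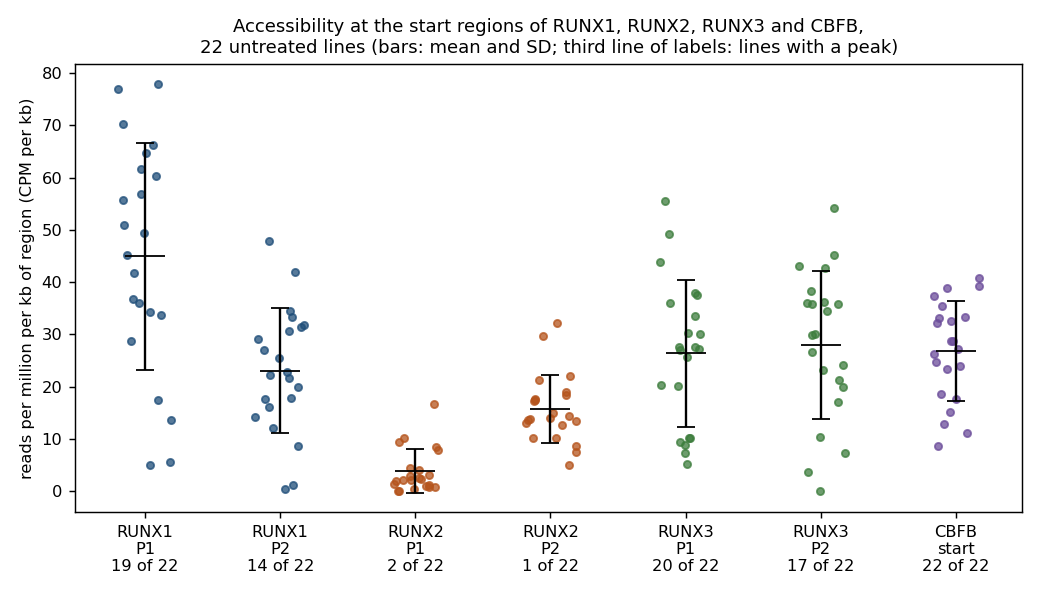
Accessibility at the 7 start regions in the 22 untreated lines, as CPM per kb of region on a linear axis. Each point is a line, and bars give the mean and SD. The RUNX1 P1 points reach the highest values and those of RUNX2 P1 lie near 0, with a mean of 3.81 CPM per kb.

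To compare starts between genes, levels were divided by the width of the region, and the difference of log2(CPM per kb + 1) within each line was tested over the 22 lines with a two-sided sign-flip permutation test of 100000 draws, adjusted by Benjamini-Hochberg over the 6 pairs of genes. For each gene the region at the start of its reference (MANE) transcript was used, which is P1 for RUNX1 and RUNX2 and P2 for RUNX3. Mean levels were 44.9 ± 21.8 CPM per kb for RUNX1, 27.9 ± 14.2 for RUNX3, 26.8 ± 9.58 for CBFB and 3.81 ± 4.22 for RUNX2 (SD, n = 22). RUNX1 exceeded RUNX2 by 3.44 ± 1.29 log2 units (SD, n = 22) and in 22 of 22 lines, with a permutation p of 1e-05, the smallest that these draws can give, and an adjusted p of 3e-05. RUNX2 was also lower than RUNX3, with a difference of -2.69 ± 1.90 log2 units (permutation test, adjusted p = 8e-05), and lower than CBFB, with -2.87 ± 1.19 (permutation test, adjusted p = 3e-05), in 21 of 22 lines in each case. RUNX1 exceeded CBFB by 0.57 ± 1.10 log2 units and in 15 of 22 lines (permutation test, adjusted p = 0.038). This call was lost without KMS12PE, where the adjusted p was 0.0764, and without PE1, where it was 0.0595. RUNX1 and RUNX3 differed by 0.75 ± 1.88 log2 units (permutation test, adjusted p = 0.088), and the order of RUNX3 and CBFB was not resolved, at -0.18 ± 1.25 (permutation test, adjusted p = 0.51).

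The 2 promoters of each RUNX gene were compared in the same way, adjusted over 3 genes. RUNX1 P1 exceeded P2 per kb by 1.00 ± 0.59 log2 units (SD, n = 22), in 22 of 22 lines (permutation test, adjusted p = 1.5e-05). This difference reflects width as well, since the P1 region spans 736 bp and the P2 region 1375 bp, and without division by width it was 0.16 (permutation test, adjusted p = 0.268). With all regions within 2500 bp of each start it was 0.53 (permutation test, adjusted p = 0.00044). RUNX2 showed the opposite order, with P1 below P2 by 2.14 log2 units, a difference of -2.14 ± 1.28, in 21 of 22 lines (permutation test, adjusted p = 1.5e-05), and of -1.32 without division by width (permutation test, adjusted p = 0.00018). RUNX3 P1 and P2 differed by 0.03 ± 1.52 log2 units, with P1 higher in 11 of 22 lines (permutation test, adjusted p = 0.93). Without division by width RUNX3 P1 exceeded P2 by 0.76 (permutation test, adjusted p = 0.026), and per kb the difference turned to -0.13 without KMS12PE and -0.11 without PE1. The RUNX3 promoters were not open to the same degree in the same lines: L363 held 6.63 CPM at P1 and the highest value at P2, whereas PE1 held 32.5 CPM at P1 and 1.88 at P2. Over the 22 lines, the log2 levels of the 2 RUNX3 promoters correlated at r = 0.096, against r = 0.883 for those of RUNX1 and -0.005 for those of RUNX2. The points of each correlation share a library and its depth, and the RUNX1 value was 0.628 over 20 lines without KMS12BM and OCIMY5.

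Smaller regions near a start filled out the promoters. RUNX3_5 and RUNX3_4, inside the P2 promoter at 35280 and 35961 bp downstream of P1, had means of 4.66 and 4.56 CPM and were accessible in 2 and 1 lines. RUNX1_30, upstream of P1 at an offset of -2206 bp, had a mean of 10.1 CPM and was accessible in 10 lines. It was unevenly open, with 0 CPM in Karpas620 and 0.675 in KMS27, where P1 itself held 21.2 and 37.4. RUNX1_29 (mean 1.74 CPM), at an offset of -1498 bp from P1, was accessible in 1 line. RUNX1_33 (0.833 CPM), RUNX1_48 (1.54) and RUNX1_49 (0.502) lay farther upstream near other annotated RUNX1 starts and were each accessible in 1 line. CBFB_2 (3.86 CPM) was accessible in no untreated line, and CBFB_4 (1.37 CPM) in 1.

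RUNX1 was among the most region-rich genes of the data, in place 13 of 38784 genes by number of regions. The annotated RUNX1 body held 94 regions, of which 40 were assigned to other starts inside it and are not members. Of the 46 distal RUNX1 regions, the 5 with the highest means formed a chain through the gene. RUNX1_24 at chr21:36398898-36399764, in the intron 22268 bp downstream of P1, held 0.789 to 50.3 CPM with a median of 26.5 and was accessible in 18 lines. RUNX1_7 at chr21:36237589-36238690, 183460 bp downstream of P1 and past P2, held 1.47 to 52.5 CPM with a median of 19.3 and was accessible in 19 lines. RUNX1_17 at chr21:36346358-36347006, 74917 bp downstream and between the promoters, held 1.31 to 38.8 CPM with a median of 18.5 and was accessible in 20 lines, the most of any RUNX1 region. RUNX1_31, upstream of P1 at an offset of -8337 bp, had a median of 9.19 CPM, and RUNX1_5, 203423 bp downstream, a median of 8.39. They were accessible in 15 and 12 lines.

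The central 300 bases of RUNX1_24 are shown because this distal region came closest to the promoters in level and because KMS27 lacked it. They are from GRCh37, chr21:36399182-36399481, minus strand, the strand of RUNX1, and capitals mark TGTGGT or TGCGGT on either strand.
RUNX1_24: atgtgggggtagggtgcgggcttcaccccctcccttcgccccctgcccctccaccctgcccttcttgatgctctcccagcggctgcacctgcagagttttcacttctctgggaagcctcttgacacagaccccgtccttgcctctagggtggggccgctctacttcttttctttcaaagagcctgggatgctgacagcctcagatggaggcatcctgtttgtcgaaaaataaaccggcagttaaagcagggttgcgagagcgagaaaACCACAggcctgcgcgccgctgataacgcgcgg

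This window was 59.3% GC, and 1 RUNX element stood in it. In KMS27, RUNX1_24 held 1.01 CPM untreated and 3.76 CPM after lenalidomide, while P1 held 37.4 and 26.0 CPM and RUNX1_17 15.2 and 25.0 CPM in the same 2 libraries. No peak was called at RUNX1_24 in either library of KMS27, so the gap was seen in both libraries of that line. XG-6 was the remaining line with open RUNX1 regions and no peak there, at 6.86 CPM.

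Regions of RUNX1 differed in how widely they were shared. Among distal RUNX1 regions with a mean of at least 5 CPM, the spread over lines beyond counting error was largest for RUNX1_27, 3164 bp downstream of P1, with a coefficient of variation of 102%. It ranged from 0 CPM in Karpas620 and PCM6 to 21.6 in U266. RUNX1_4, 204468 bp downstream, followed with 90.5%, with 0.624 CPM in XG-6 and 25.1 in U266, and RUNX1_31 with 63.9%. These values stood at percentiles 79.0, 72.2 and 51.5 of the 41640 regions of that level in the data. At RUNX1 P1 the value was 47.2%, at percentile 35.0. Compared with P1, the levels of the other 11 RUNX1 regions with a mean of at least 5 CPM had r of 0.197 to 0.883 over the 22 lines, with RUNX1_9 (P2) the most alike and RUNX1_4 the least. Without KMS12BM and OCIMY5 the median of these r fell from 0.698 to 0.351.

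**Figure D2:**
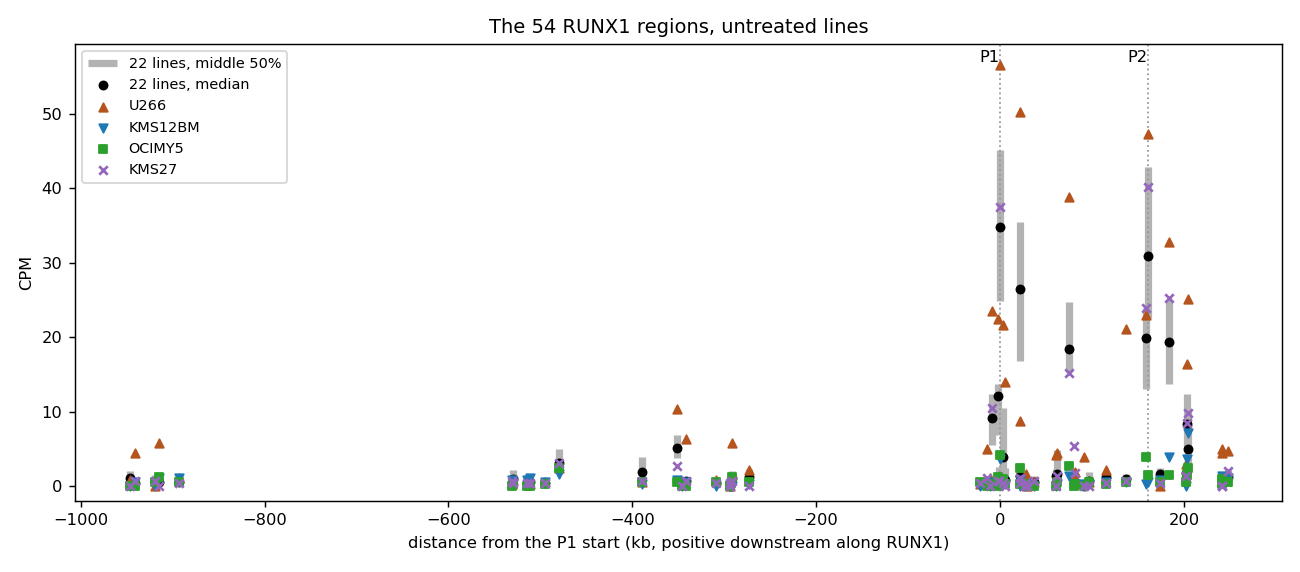
Levels of the 54 RUNX1 regions against their distance from the P1 start in kb, positive along the direction of transcription, in untreated lines. Black points are medians and gray bars the middle 50% of the 22 lines, and colored symbols mark 4 named lines. U266 lies above the bars at most open regions, KMS12BM and OCIMY5 lie below 5 CPM at both promoters, with KMS12BM at 7.10 CPM at RUNX1_4, and KMS27 lies near 0 at RUNX1_24, where it held 1.01 CPM.

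In KMS12BM and OCIMY5 none of the 54 RUNX1 regions was accessible, whereas 21.6% and 25.1% of all regions were. The summed RUNX1 level was 40.5 CPM in KMS12BM and 38.0 in OCIMY5. In the other 20 lines it ran from 132 in XG-6 to 491 in U266, so these 2 lines did not overlap the rest. At RUNX1 P1 they held 3.68 and 4.13 CPM, at P2 0.526 and 1.47, and at RUNX1_17 1.31 and 2.65. Of the 12 RUNX1 regions with a mean of at least 5 CPM, 6 were lower in both of these lines than in each of the other 20. RUNX1_4 was an exception, at 7.10 CPM in KMS12BM. Summed together, nearby regions assigned to other genes were not lower to that extent. The 174 such regions within 1 Mb of the RUNX1 regions summed to 928 CPM in KMS12BM and 735 in OCIMY5. These sums lay within the 564 to 1761 CPM of the other 20 lines. They include the 40 regions of the annotated RUNX1 body that are assigned to other starts, so they are not of neighboring genes alone. A sum can hide single genes that were low, and no neighboring gene was read by itself in these 2 lines. AF015262.2, which begins 0.301 Mb from the first RUNX1 region, correlated with RUNX1 at r = 0.843 over the 22 lines. Over chromosome 21 as a whole, the sums were 9276 CPM in KMS12BM and 10194 in OCIMY5, against a median of 10185 in the other 20. With thresholds on level in place of peaks, 8 RUNX1 regions reached 2 CPM and 1 reached 5 CPM in at least 1 of these 2 lines.

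KMS12BM and KMS12PE are lines from the marrow and the pleural effusion of the same tumor, and their libraries correlated at r = 0.727. Their RUNX loci nevertheless differed in opposite directions. The RUNX1 sum was 40.5 CPM in KMS12BM and 326 in KMS12PE, 8.05-fold higher, whereas the RUNX3 sum was 54.2 CPM in KMS12BM and 14.8 in KMS12PE, 3.67-fold lower in the latter. All 8 RUNX3 regions were higher in KMS12BM by CPM, some of them on few reads. RUNX3_7 held 2 reads in each line and differed only through library size, and RUNX3_1 held 8 reads in KMS12BM and 3 in KMS12PE. At RUNX3 P2, KMS12BM held 18.1 CPM and KMS12PE 0 reads, which allows up to 0.763 CPM for counting error only. RUNX3_5 was also at 0 in KMS12PE, while RUNX3 P1 held 18.1 CPM in KMS12BM and 9.16 in KMS12PE, and a peak was called at P1 in both. The 170 regions assigned to other genes within 1 Mb of the RUNX3 regions include 3 in the annotated RUNX3 body. They summed to 961 CPM in KMS12PE, within the 658 to 1495 CPM of the other 21 lines. The RUNX2 sums were 58.6 and 59.3 CPM and did not separate the 2 lines. Each line has 1 untreated library, so these differences have no replicate check.

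Among the regions assigned to RUNX2, the most open was distal, with a mean of 10.9 CPM, below the 16.9 and 15.9 CPM of 2 regions near P2 that the files assign to RP1-244F24.1. The RUNX2 sum ran from 27.4 CPM in Karpas620 to 156 in H1112, with a median of 58.9, and the most open member was RUNX2_15 at chr6:45454335-45454847, in an intron 158524 bp downstream of P1. RUNX2_15 held 3.78 to 39.0 CPM with a median of 7.92 and was accessible in 16 lines, the only RUNX2 region open in 11 or more. H1112 was the highest, followed by OPM2 at 26.6 CPM. RUNX2_7, 117722 bp downstream of P1, was accessible in 9 lines, with 0 CPM in KMS21BM, 0.343 in MM1S and 24.6 in RPMI8226. RUNX2_12 ranged from 0 CPM in PE1 to 20.9 in OCIMY5. RUNX2_11 (mean 4.97 CPM, accessible in 9 lines) and RUNX2_3 (4.72 CPM, 1 line) completed the 5 highest distal regions. Spread over lines beyond counting error was 98.0% for RUNX2_12, 94.1% for RUNX2_7 and 72.9% for RUNX2_15, and the last 2 stood at percentiles 74.6 and 59.3 of regions of that level.

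RUNX3 and CBFB had few distal regions and little signal in them. RUNX3_3, 39742 bp downstream of P1 and past P2, had a median of 0.866 CPM, but held 16.1 CPM in LP1, where a peak was called, and 10.6 in KMS11. RUNX3_7 (mean 1.98 CPM), RUNX3_2 (1.98) and RUNX3_1 (1.00), as well as CBFB_3 (0.677), were accessible in at most 1 line each. The RUNX3 sum was lowest in KMS12PE, at 14.8 CPM, followed by KMS28, and highest in KMS27, at 84.0. The CBFB sum ran from 6.88 CPM in KMS20 to 31.8 in OPM2.

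**Figure D3:**
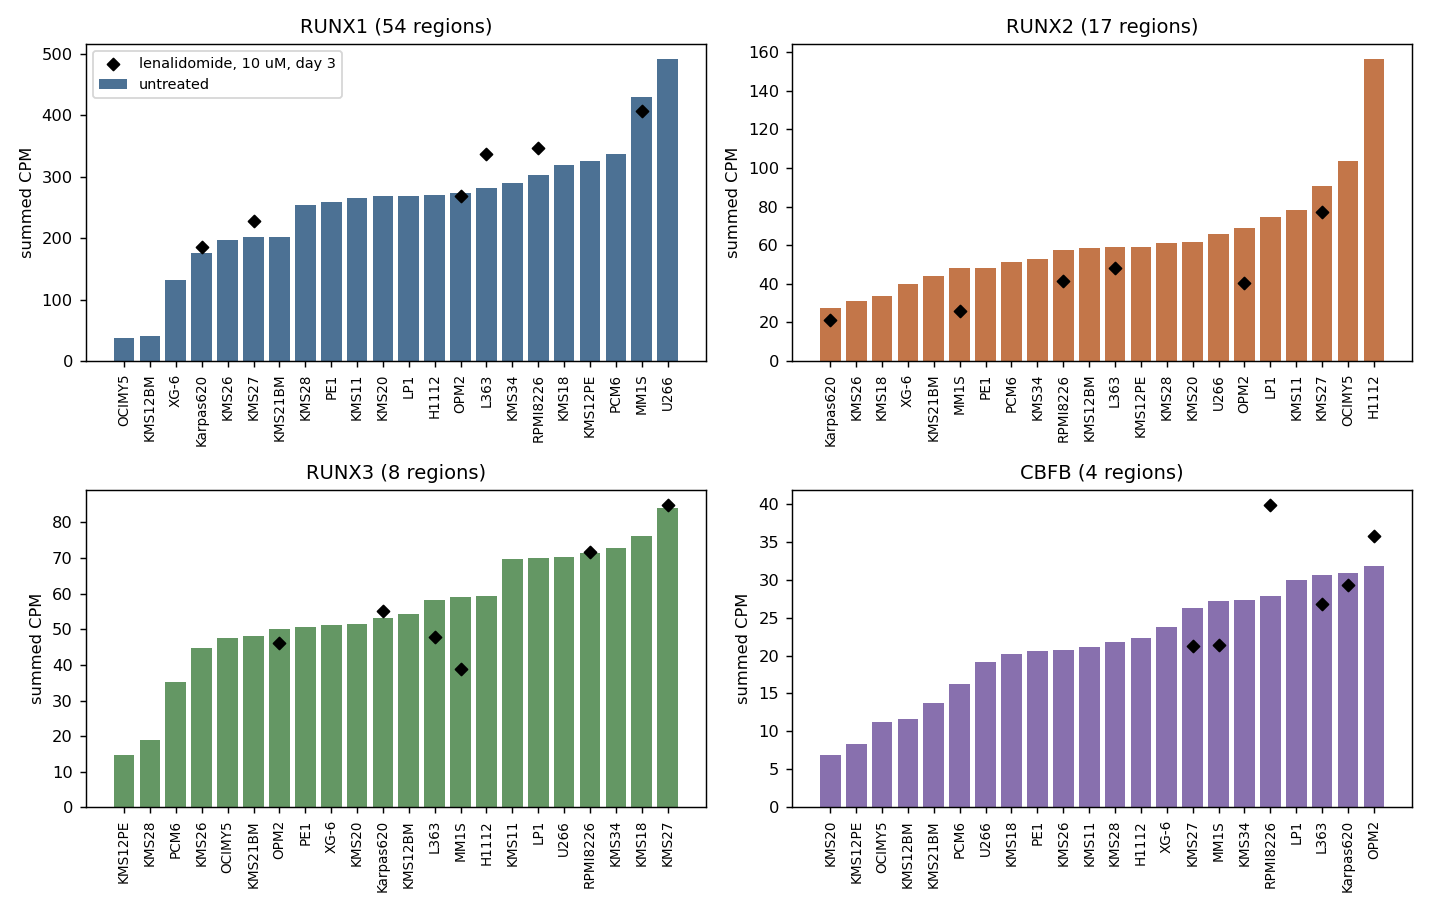
Summed CPM over the regions of each gene, with untreated lines as bars in increasing order and the 6 lenalidomide libraries as diamonds above their line. OCIMY5 and KMS12BM have the lowest RUNX1 sums, KMS12PE and KMS28 the lowest RUNX3 sums, and the 6 diamonds of RUNX2 all lie below the top of their bar.

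Across the family, 77 of 83 member regions were accessible in at least 1 untreated line. A peak in 1 line only was seen for 37 members, or 44.6%, against 37.1% of all regions, and 12 members, or 14.5%, were accessible in 11 or more lines, against 14.8% of all regions. H1112, the deepest library, and U266 each had 7 of the 54 RUNX1 regions as the only untreated line. Of all regions, 8.89% were found in H1112 alone and 2.14% in U266 alone. Most members differed more between lines than between the 2 libraries of a line. Of 19 members with a mean of at least 5 CPM, 17 had a larger SD of log2 level over the 6 paired lines, untreated, than within their untreated and lenalidomide pairs, with median SDs of 0.788 and 0.319. The exceptions were CBFB_1, with 0.132 over the lines and 0.210 within pairs, and RUNX1_42, with 0.353 and 0.407. Over all 22 lines the SD was larger than within pairs for 18 of the 19, all but RUNX2_15, with 0.790 and 0.815.

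The 4 loci were correlated to different degrees over the lines. Between their summed log2 levels, r was 0.449 for RUNX3 and CBFB, 0.324 for RUNX1 and CBFB, 0.0873 for RUNX2 and RUNX3, 0.0191 for RUNX1 and RUNX3, -0.103 for RUNX2 and CBFB and -0.112 for RUNX1 and RUNX2 (n = 22 lines). Among the r of all genes with a mean sum of at least 10 CPM against the first of the pair, that of RUNX3 with CBFB stood at percentile 97.3 and that of RUNX1 with CBFB at percentile 91.0, and the other 4 pairs stood between percentiles 31.9 and 67.2. OCIMY5 and KMS12BM, lowest for RUNX1, also had low CBFB sums, at 11.2 and 11.6 CPM against a median of 21.5. KMS12PE, lowest for RUNX3 at 14.8 CPM, held 8.40 for CBFB. KMS20, lowest for CBFB at 6.88 CPM, held 268 for RUNX1 and 51.6 for RUNX3. The r between members were not recomputed without any of these lines. Among 21465 genes with a mean sum of at least 10 CPM, those most like RUNX1 were SP8 (r = 0.888), AF015262.2 (0.843) and ZNF608 (0.794). AF015262.2 begins 0.301 Mb from the first RUNX1 region on the same chromosome. The likeness to SP8 rested on KMS12BM and OCIMY5, since r was 0.341 without them. The values for AF015262.2 and ZNF608 were not recomputed without these lines. Those most like RUNX2 were NKX3-2 (r = 0.736), RP11-477G18.2 (0.735) and TOX2 (0.698), and those most like RUNX3 were MICALL1 (0.781), CSRP1 (0.777) and RNU6-487P (0.752). For CBFB they were CTD-2012K14.7 (0.877), RANBP10 (0.872) and USB1 (0.858), all on chromosome 16 as CBFB is, and the nearest of them begins 0.533 Mb away. The points of these correlations share libraries and their depth, and copy number was not measured.

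**Figure D4:**
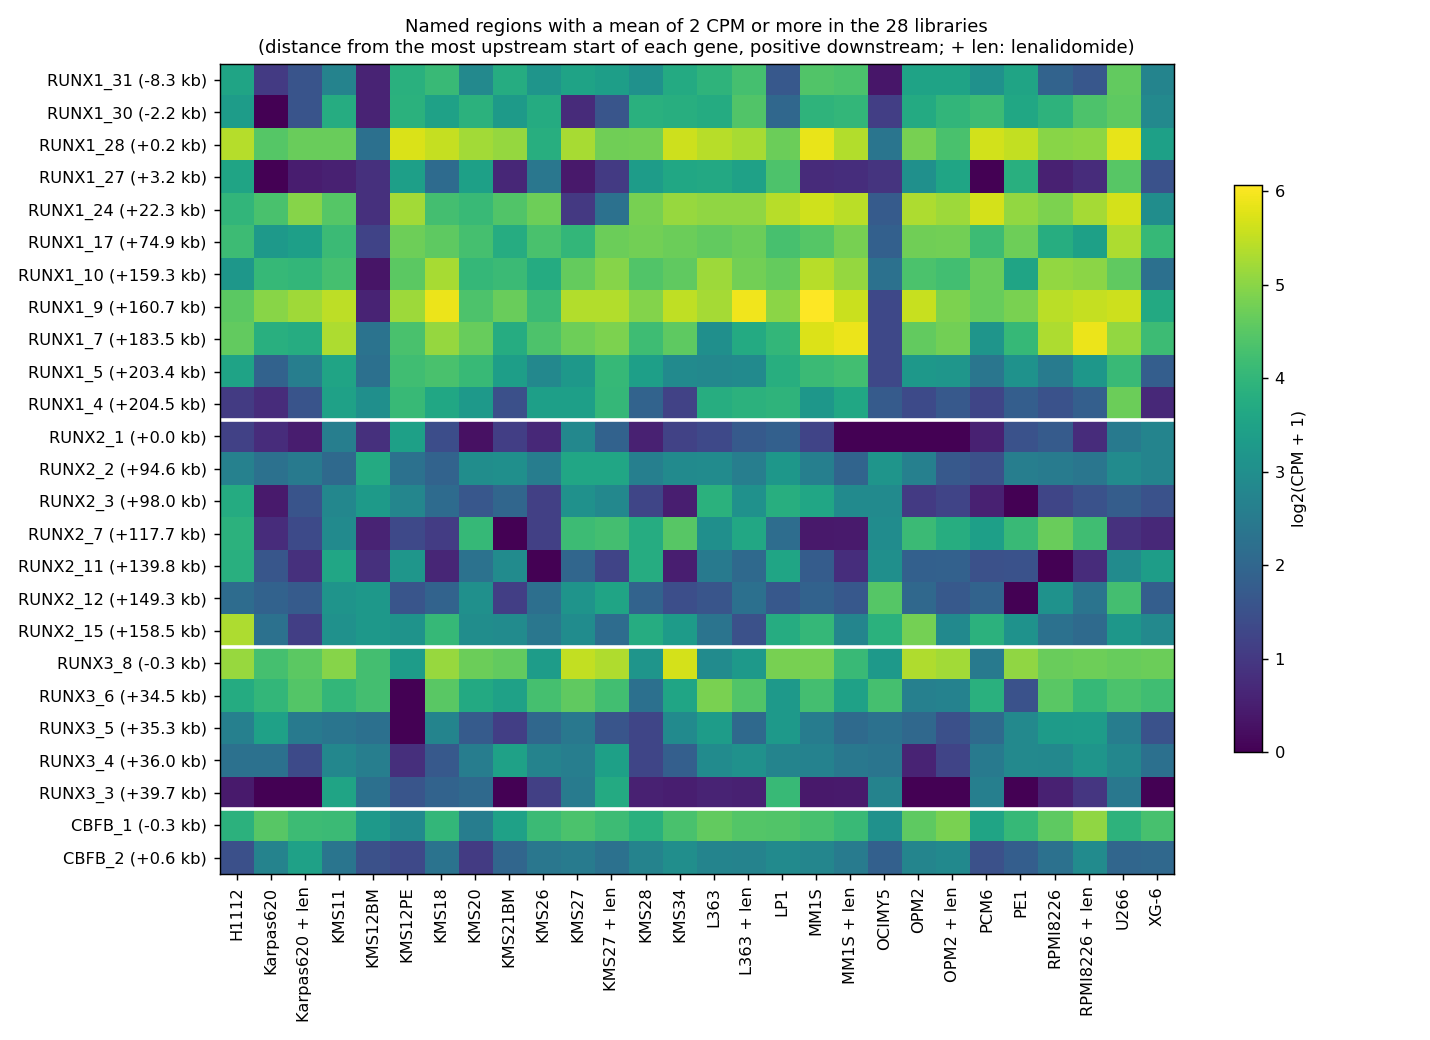
Log2(CPM + 1) of the named member regions with a mean of at least 2 CPM in all 28 libraries, ordered by gene and by distance from P1, or from the start for CBFB. KMS12BM and OCIMY5 are dark over the RUNX1 rows and KMS12PE is at 0 at RUNX3_6 and RUNX3_5, while untreated and lenalidomide libraries of the same line look alike in most rows.

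Lenalidomide left most RUNX family regions without a detected change, as it did most tested regions. The 6 pairs were tested with edgeR's quasi-likelihood fit with the cell line as a block, over the 37732 regions with enough reads, and p-values were adjusted by Benjamini-Hochberg over all of them. Of the 23 member regions tested, 1 changed, and it fell, against 5.4% of all tested regions that changed, 4.17% that rose and 1.22% that fell. The count of 1 is close to the share of all tested regions that changed, so it is no result about the members as a group. At an unadjusted p below 0.05 there were 4 of 23, against 17.3% of all tested regions. The median log2 fold change was 0.05 over the 23 members and -0.01 over all tested regions. The other 60 members had too few reads to be tested in these 12 libraries.

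The member that fell was RUNX2_15. Its level went from 3.82 to 1.17 CPM in Karpas620, from 6.75 to 3.42 in KMS27 and from 4.08 to 1.84 in L363. In MM1S it went from 15.4 to 5.81 CPM, in OPM2 from 26.6 to 6.33 and in RPMI8226 from 3.78 to 3.30. Every line was lower after lenalidomide, with the smallest step in RPMI8226, whose treated value lies within the counting interval of the untreated one, 1.91 to 7.45 CPM (95% Wilson). The values rest on 3 to 16 reads in the treated libraries and 8 to 51 in the untreated ones. The log2 fold change was -1.30 with an SE of 0.27, a level of 0.407 times the untreated one (edgeR quasi-likelihood, adjusted p = 0.0020). Peaks were read in KMS27, MM1S and OPM2 before treatment, and in MM1S and RPMI8226 after it. Without KMS27 or MM1S, the region fell under the read filter and could not be tested. Without the cell line block, the log2 fold change was -1.44 and the call was lost (edgeR, adjusted p = 1.00).

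The central 300 bases of RUNX2_15 are shown as this was the only member that changed. They are from GRCh37, chr6:45454442-45454741, plus strand, the strand of RUNX2, and capitals mark TGTGGT or TGCGGT on either strand.
RUNX2_15: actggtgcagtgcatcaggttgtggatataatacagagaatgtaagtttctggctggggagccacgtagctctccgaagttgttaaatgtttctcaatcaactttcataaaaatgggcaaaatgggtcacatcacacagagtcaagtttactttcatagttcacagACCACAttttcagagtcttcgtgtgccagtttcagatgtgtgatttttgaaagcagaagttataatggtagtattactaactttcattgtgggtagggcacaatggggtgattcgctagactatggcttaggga

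The window was 41.0% GC and held 1 RUNX element. The element TGGGAA, a core that Ikaros family factors bind, was not present in it on either strand. That element was held by 21.3% of all regions and by 17 of 83 members, or 20.5%.

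Among the other tested members, the lowest p-values belonged to RUNX3_5 and RUNX1_30. RUNX3_5, at RUNX3 P2, had a log2 fold change of -0.73 with an SE of 0.27 and was lower in 5 of 6 lines (edgeR quasi-likelihood, adjusted p = 0.113). It passed the threshold only without RPMI8226, with an adjusted p of 0.0353. RUNX1_30 had 0.53 with an SE of 0.24 and was higher in 6 of 6 lines (edgeR quasi-likelihood, adjusted p = 0.237). RUNX1_7 had 0.28, RUNX1_5 0.45 and RUNX1_4 0.48, with adjusted p of 0.288 to 0.324 in the same edgeR fit. At the promoters, the log2 fold change was -0.24 with an SE of 0.13 at RUNX1 P1 (RUNX1_28), -0.03 with 0.13 at RUNX1 P2 (RUNX1_9), -0.09 with 0.15 at RUNX3 P1 (RUNX3_8), -0.29 with 0.18 at RUNX3 P2 (RUNX3_6) and 0.00 with 0.16 at the CBFB start, none past the threshold.

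**Figure D5:**
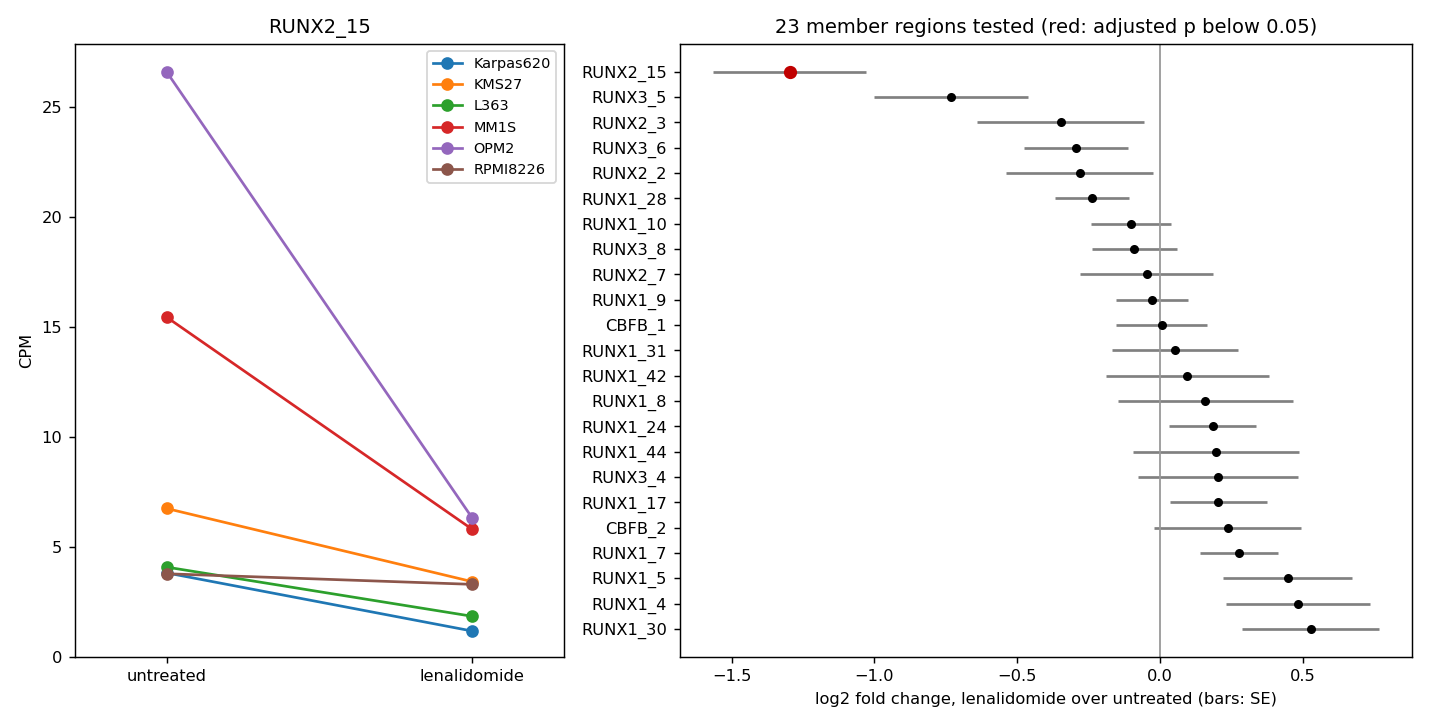
Left, CPM of RUNX2_15 in the 6 lines before and after lenalidomide, with a line for each cell line. Right, log2 fold change of the 23 tested member regions with SE bars, where RUNX2_15, in red at -1.30, is the only region with an adjusted p below 0.05.

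Summed over the 17 regions assigned to it, RUNX2 fell as well. The annotated RUNX2 body held 57 regions, and the 41 of them assigned to other starts are not in this sum. The sum went from 27.4 to 21.5 CPM in Karpas620, from 90.4 to 77.3 in KMS27 and from 59.2 to 48.4 in L363. It went from 48.1 to 25.8 CPM in MM1S, from 68.9 to 40.2 in OPM2 and from 57.6 to 41.7 in RPMI8226. All 6 lines were lower, by a log2 fold change of -0.48 with an SE of 0.12 (edgeR quasi-likelihood over 27111 gene sums, adjusted p = 0.024). In that fit 2.13% of all gene sums changed, 1.77% rose and 0.361% fell. The RUNX2 call was lost with DESeq2 (adjusted p = 0.0622), without MM1S (edgeR, 0.107), without OPM2 (edgeR, 0.133) and without the cell line block (edgeR, 1.00), with the log2 fold change between -0.48 and -0.40 in these fits. The sum holds RUNX2_15, so both results share reads. The RUNX1 sum had a log2 fold change of 0.11 with an SE of 0.06 (edgeR, adjusted p = 0.45), that of RUNX3 -0.13 with 0.11 (adjusted p = 0.65) and that of CBFB -0.02 with 0.15 (adjusted p = 0.98), none past the threshold. The direction for RUNX3 turned with distal regions alone, where it was 0.46 (edgeR, adjusted p = 0.331).

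Genes that act with the RUNX factors were read in the same fit, in lists by role. Of 20 partners and cofactors, such as the TLE corepressors, SIN3A and EP300, 18 had a region within 2500 bp of the start, and 15 of these 18 were accessible in 11 or more lines, 7 of them in all 22. Of all regions within 2500 bp of any annotated start, 32.2% were accessible in 11 or more lines and 13.4% in all 22. The lists use only the region nearest the reference start of each gene. Of 12 factors that bind DNA beside RUNX proteins, 7 had such a region, and 2 of these, those of FLI1 and IKZF1, were accessible in 11 or more lines. Of 9 blood cell targets, 4 had such a region, 3 of them accessible in 11 or more lines. Of 7 bone targets, 4 had one, of which 1 was accessible in 11 or more lines and 1 in none. All 4 lists together held 48 genes, of which 44 gene sums were tested with edgeR. After lenalidomide 1 rose and 0 fell, where 1.77% of all gene sums rose and 0.361% fell. The count of 1 is close to that share, so it is no result about the lists. At an unadjusted p below 0.05 there were 3 of the 44, against 14.1% of all gene sums. The gene that rose was CDKN1A, which encodes the cell cycle inhibitor p21. Its sum went from 55.5 to 87.6 CPM in Karpas620, from 93.4 to 111 in KMS27, from 26.5 to 37.4 in L363, from 40.5 to 60.3 in MM1S, from 28.7 to 46.1 in OPM2 and from 86.9 to 118 in RPMI8226, higher in all 6, with a log2 fold change of 0.51 and an SE of 0.10 (edgeR, adjusted p = 0.0049). The CDKN1A start region alone had 0.19 with an SE of 0.17 and did not pass the threshold (edgeR over regions, adjusted p = 0.634). Of the 6 tested bone targets, such as SPP1 and COL1A1, 0 passed the threshold, with log2 fold changes of 0.04 to 0.51 and 1 at an unadjusted p below 0.05. Of the 4 T cell marker sums tested, that of CD2 rose by 1.16 log2 units (edgeR, adjusted p = 0.011). Its only region lies 9728 bp from the start, and the start region of CD3E held at most 6.19 CPM in any untreated line. The part of other cell types in the lenalidomide results was not tested.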

How the data were processed

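The files hold ATAC-seq of 28 libraries. The authors aligned reads to GRCh37 with Bowtie2 (2.2.6), processed alignments with SAMtools (1.7), called peaks with MACS2 (2.1.0.20151222) at q = 0.01 and merged them into union regions. The deposited counts are whole reads per region and library, without normalization, and the deposited detection table was read as the number of each library's own peaks in a region, which no source used here states. The authors' normalized coverage and the peak positions in BED form were not used here. Members, lists, starts and tests were chosen with earlier results of these data known. The regions named are all those near a start, the 5 distal regions per gene with the highest mean, the 3 with the largest spread among those with a mean of at least 5 CPM, and for lenalidomide the 5 with the lowest p.

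P1 and P2 starts came from GENCODE v44lift37 transcripts. CPM, log2 values with a pseudocount of 1 and sign-flip permutation tests (100000 draws, numpy 2.4.6, scipy 1.17.1) were computed in Python 3.11.15. Lenalidomide was tested with edgeR 4.0.16 (TMM, quasi-likelihood, cell line as block, filterByExpr), and DESeq2 1.42.0 was an alternative. The block pairs the 2 libraries of a line, which correlated at r = 0.933 to 0.960. The edgeR and sign-flip steps were tested on simulated data. Counting intervals cover counting error only. With 1 library per line and condition, p-values set the mean within-line difference against how far that difference varies from line to line. The fit without the cell line block is the exception.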

Additional observations from a re-analysis of the deposited data

How the results depend on the processing

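With the cell line block left out, no region or gene sum changed in edgeR: the counts were 0 of all regions, 0 of those raised, 0 of those lowered, 0 of the members and 0 of the gene sums. At an unadjusted p below 0.05 that fit without the replicate block called 440 regions and 156 gene sums. The RUNX2 sum was then -0.45 and the CBFB sum 0.0048 on the log2 scale, and RUNX2_15 was -1.44. The pairing comes from the labels, since both libraries of a pair are of the same line.

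The number of regions that changed was 839 with DESeq2 (726 raised, 113 lowered), 4092 with no filter on low counts (3608 raised) and 587 where every 1 of the 12 libraries had to hold 10 counts (472 raised, 115 lowered). Gene sums that changed numbered 275 with DESeq2 and 916 with no filter. Members that changed numbered 3 with no filter, RUNX2_15, RUNX1_6 and RUNX1_35, and 0 with at least 10 counts, where RUNX2_15 was not tested. Leaving out each line in turn gave 1067 (without MM1S) to 2503 (without RPMI8226) regions changed, 875 to 1919 raised, 192 to 584 lowered, 0 (without KMS27 or MM1S) to 2 (without RPMI8226) members and 331 (without OPM2) to 797 (without RPMI8226) gene sums. It gave -0.54 to -0.40 for the RUNX2 sum and -0.14 to 0.047 for the CBFB sum, whose sign was thus not settled. The RUNX2 sum was -0.48 with DESeq2, and its adjusted p then missed the threshold. The RUNX3 sum turned to 0.46 with distal regions only.

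At the starts, the difference of RUNX1 and RUNX3 passed the threshold without division by width (1.20), with all regions within 2500 bp (0.76) and without KMS12BM and OCIMY5 (1.08), and that of RUNX1 and CBFB missed it without KMS12PE (0.47) and without PE1 (0.54). Without division by width, RUNX1 P1 minus P2 was 0.16 and missed the threshold, while RUNX3 P1 minus P2 was 0.76 and passed it. The RUNX3 difference turned to -0.13 without KMS12PE and -0.11 without PE1. With a threshold of 2 CPM in place of peaks, 28 members were open in 11 or more lines, 4 in every line and 8 RUNX1 regions in KMS12BM or OCIMY5, and with 5 CPM there were 0 in every line and 1 RUNX1 region. The likeness of RUNX1 and SP8 was 0.38 by Spearman's rho and 0.34 without KMS12BM and OCIMY5. Leaving out PE1, the KMS12BM and OCIMY5 pair, and using the RP1-244F24.1 region at RUNX2 P2 were chosen after seeing the data. Over all alternatives for these results, those included, 143 kept the direction and the side of the threshold, or moved less than their allowance. Another 38 moved by more than their allowance, 8 turned direction, 7 lost a call and 4 gained one. The cause was not tested. Depth limits the 60 members that had too few reads to be tested for lenalidomide.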
